A study of Drosophila melanogaster with 10 samples.

Results

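The genes described here encode the proteasome of Drosophila S2 cells. They were found by symbol, as every gene of the deposited RNA-seq table whose name begins with Prosalpha, Prosbeta, Pros and a digit, Rpn and a digit, or Rpt and a digit. The rule used names and no measured value. It found 41 of 15240 genes, with 56 of 30551 transcript entries. Of these, 28 are general subunits, 13 of the 20S core (7 alpha, 6 beta) and 15 of the 19S regulatory particle (8 base, 7 lid, with the ubiquitin receptor Rpn10 counted in the base). The other 13 carry a T or R suffix and are copies of a general subunit. The table uses several older symbols: Pros25, Pros29, Pros28.1 and Pros35 are Prosalpha2, Prosalpha3, Prosalpha4 and Prosalpha6, Pros26 is Prosbeta6, Pros26.4 and Pros45 are Rpt2 and Rpt6, and Pros54 is Rpn10. A further 8 proteasome genes stand under symbols that the rule does not match, among them CG17331 (Prosbeta4), Tbp-1 (Rpt5), CG13349 (Rpn13), Mov34 (Rpn8) and CG13779 (Sem1). They are given beside the members and enter no count of members.

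The proteasome is the protease that degrades ubiquitin-tagged proteins in the cytosol and nucleus. Its 20S core is a barrel in which rings of alpha subunits guard the entry to inner rings of beta subunits, and a few of the beta subunits cut peptide bonds. The 19S particle caps the barrel, with a base of AAA ATPases that unfold the substrate and a lid that removes its ubiquitin. In Drosophila many subunits have a second gene, and copies with a T in their name are known from the male germ line.

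The study examined how the Polycomb group protein Polyhomeotic (Ph) organizes chromatin, in S2 cells and in derived lines with a transgene of Ph, either wild type (Ph-WT) or mutant in the polymerization interface (Ph-ML). The series has 10 samples in 5 groups of 2 replicates, and the values analysed here come from 1 group, the 2 S2 RNA libraries. The other 8 samples, ChIP and input libraries of the Ph-WT and Ph-ML lines, were not analysed here. S2 cells are a line of embryonic origin with features of blood cells. Those of the RNA group are labelled wild type, were grown in ESF-921 medium and, per the methods of the study, were kept with copper sulphate (0.5 mM, 3 days) like the Ph lines, although they carry no Ph transgene. Of 6 blood cell markers 5 were at 1 RPKM or more, where 50.5% of all genes were under 1 RPKM. The receptor Pvr was the highest, at 72.6 RPKM (replicate 1) and 69.5 RPKM (replicate 2). Hml was just past that level, at 1.21 and 1.14 RPKM, and Pxn was under it, at 0.529 and 0.267 RPKM. Recovered library sizes were 37054213 reads in replicate 1 and 9495835 reads in replicate 2, a 3.90-fold difference. RPKM are reads scaled to transcript length and library size, so 3 reads on a transcript of 1 kb are 0.0810 RPKM (replicate 1) and 0.316 RPKM (replicate 2). The level of a gene is the median RPKM over its transcript entries. Differences were taken after a log2(RPKM + 1) transformation, so those of genes near 0 are understated. With 1 group there is no condition to compare. For a difference measured within each of 2 libraries, an exact two-sided sign permutation test cannot give a p under 0.5, so no test across samples is given, and SDs are over the 2 libraries.

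General subunits were abundant as a group. All 28 had a mean of at least 5 RPKM, a level that 29.5% of all genes reached. Their median was 30.9 RPKM (replicate 1) and 27.2 RPKM (replicate 2), or 29.0 ± 2.63 RPKM (SD, n = 2). Means spanned 4.25-fold, from 13.4 RPKM for Pros45 to 56.8 RPKM for Prosalpha1. Pros45 stood above 87.9% of the protein-coding genes and Prosalpha1 above 97.9%, so all 28 lay in the upper part of the distribution.

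Core subunits were higher than cap subunits. The median of the 13 20S genes was 42.0 RPKM (replicate 1) and 36.8 RPKM (replicate 2) (39.3 ± 3.67, SD, n = 2), against 21.5 and 21.1 RPKM for the 15 19S genes (21.3 ± 0.250). On the log2 scale the 20S median exceeded the 19S median by 0.93 in replicate 1 and by 0.77 in replicate 2, so that the mean was 0.85 ± 0.12 (SD, n = 2). The difference was thus larger than its spread between the libraries. The classes still overlapped. By mean level 7 of 13 20S members were above the highest 19S member, Rpn6. Of the 15 19S members, 13 were below the lowest 20S member, Prosbeta3. Rpt1 and Rpn6 were the 2 19S members within the 20S range. The overlap was larger with the subunits under other symbols. Among these the lid gene CG13779 (Sem1) had a mean of 46.4 RPKM, above every 20S gene but Prosalpha1. With the subunits under other symbols added, 14 20S and 19 19S genes, the mean difference was 0.82.

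**Figure D1:**
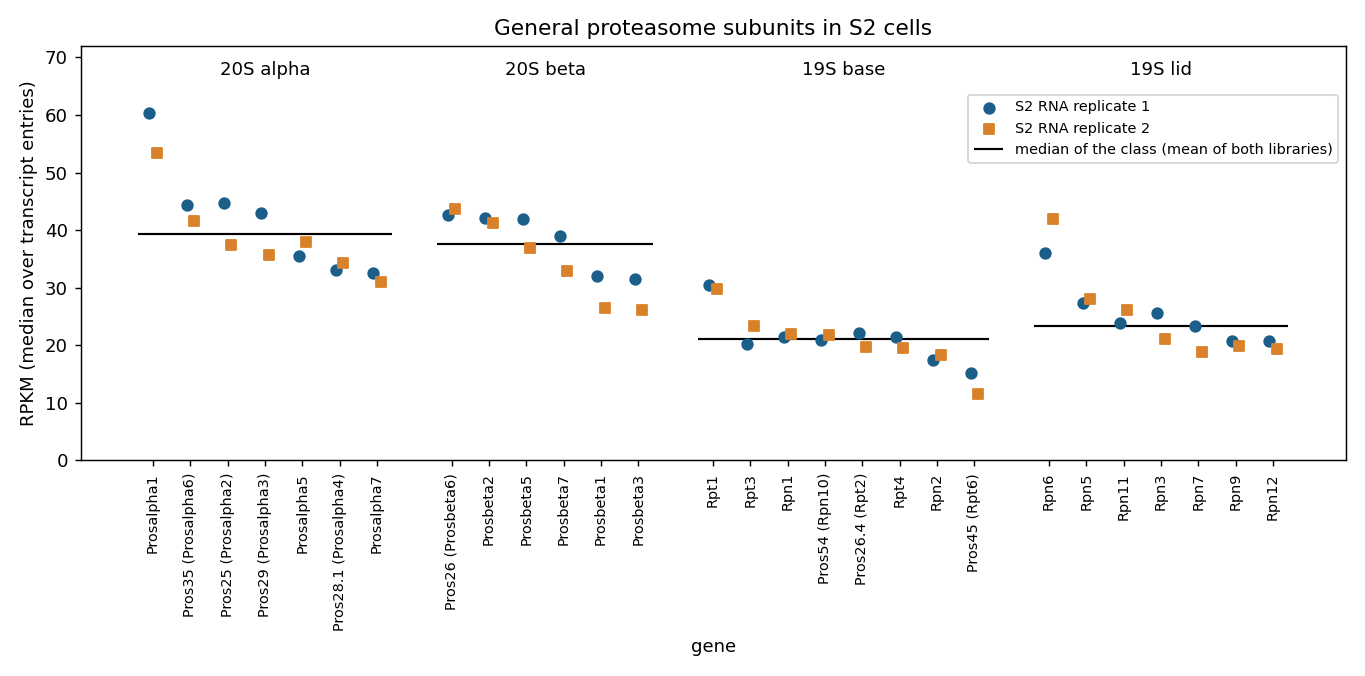
RPKM of the 28 general subunits (vertical axis, median over transcript entries, linear scale from 0) in S2 RNA replicate 1 (circles) and replicate 2 (squares), grouped by class, with a line at the class median. The 20S classes on the left have medians of 39.3 RPKM (alpha) and 37.7 RPKM (beta), and the 19S classes on the right 21.1 RPKM (base) and 23.3 RPKM (lid).

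Alpha subunits form the outer rings of the core and control access to it. Prosalpha1 had 60.3 RPKM (replicate 1) and 53.4 RPKM (replicate 2), more in each library than any other member in either. It was followed by Pros35 with 44.3 and 41.5 RPKM, Pros25 with 44.7 and 37.4 RPKM and Pros29 with 43.0 and 35.7 RPKM, whose ranges over the libraries overlapped. The lower alpha genes were Prosalpha5 with 35.4 and 37.9 RPKM, Pros28.1 with 33.1 and 34.4 RPKM and Prosalpha7 with 32.5 and 31.0 RPKM. The value of Prosalpha1 is uncertain for a reason seen in the table itself. Prosalpha1 and CG30382, now named Prosalpha1R, are a gene and its duplicate, with 1 annotated gene between them, and 2 of the 4 entries of each had the same values under both symbols. CG30382 had 60.8 and 53.8 RPKM, and the reads of these genes cannot be told apart here.

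Beta subunits form the inner rings. The 3 with catalytic activity did not share 1 level. Prosbeta2, which carries the trypsin-like site, had 42.0 RPKM (replicate 1) and 41.2 RPKM (replicate 2). Prosbeta5, with the chymotrypsin-like site, had 42.0 and 36.8 RPKM. Prosbeta1, with the caspase-like site, was lower in both libraries, at 32.0 and 26.39 RPKM. The beta subunits without a catalytic site spanned the same range, with Pros26 at 42.7 and 43.6 RPKM, Prosbeta7 at 39.0 and 32.8 RPKM and Prosbeta3 at 31.5 and 26.2 RPKM. CG17331, the general Prosbeta4 gene outside the rule, had 35.3 and 32.9 RPKM. The alpha median exceeded the beta median by 0.08 in replicate 1 and 0.10 in replicate 2 on the log2 scale, or 0.09 ± 0.01 on average (SD, n = 2). That difference was 0.010 without Prosalpha1, and leaving out Pros35 in its place gives the same medians, so the step is not particular to Prosalpha1.

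The base of the cap holds the ATPase ring. Rpt1 was its highest member, at 30.4 RPKM (replicate 1) and 29.8 RPKM (replicate 2). Rpt3 had 20.1 and 23.3 RPKM, Pros26.4 had 22.1 and 19.6 RPKM and Rpt4 had 21.5 and 19.5 RPKM. Pros45 was the lowest, at 15.2 and 11.5 RPKM, and Tbp-1, the ATPase outside the rule, had 13.8 and 12.9 RPKM. The ATPases assemble into 1 ring, and their levels did not form 1 cluster: Rpt1 and Pros45 were apart in both libraries by more than their own spread. Rpn1 and Rpn2 are the large scaffold proteins of the base, with Rpn1 at 21.4 and 21.9 RPKM and Rpn2 at 17.4 and 18.3 RPKM. The ubiquitin receptor Rpn10 (Pros54) had 20.9 and 21.7 RPKM. A further ubiquitin receptor, Rpn13 (CG13349), had 11.8 and 15.8 RPKM, below Pros54 in both libraries. In the annotation of the newer genome release, Rpt1 lies within CG17985, which had 3.05 and 3.84 RPKM, and most of Pros45 overlaps CG1801, which had 0.728 and 0.516 RPKM. The counting is not stated to use strand, so reads of such overlapping pairs could be shared.

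The lid carries the deubiquitinase Rpn11, which had 23.8 RPKM (replicate 1) and 26.2 RPKM (replicate 2). Mov34, its catalytically inactive partner Rpn8, stands outside the rule and had 28.3 and 24.0 RPKM. More than 1 gene may share its reads, since much of it overlaps Slik, at 24.6 and 21.8 RPKM. Most of the remaining lid genes encode scaffold proteins of 1 fold family. Rpn6, which in yeast contacts the alpha ring of the core, was the highest 19S member at 36.0 and 41.8 RPKM. Rpn5 followed with 27.2 and 28.0 RPKM. Rpn3 had 25.5 and 21.1 RPKM, Rpn7 had 23.4 and 18.8 RPKM, Rpn9 had 20.7 and 19.9 RPKM and Rpn12 had 20.7 and 19.3 RPKM. The values of Rpn7, Rpn9 and Rpn12 over the libraries overlapped, and those of Rpn3 lay above Rpn9 and Rpn12 in both. CG13779 (Sem1), a small lid protein outside the rule, had 48.7 and 44.1 RPKM, above every 19S member. The base median was lower than the lid median by 0.16 in replicate 1 and by 0.03 in replicate 2 on the log2 scale. The mean difference, base minus lid, was -0.10 ± 0.09 (SD, n = 2), about the size of its spread, and became -0.29 with the genes under other symbols.

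Transcript choice mattered little for the general subunits. Of the 28, 19 had 1 entry and 9 had several. The entries of Prosbeta7 differed 1.18-fold in replicate 1 on the same reads, which is a difference of transcript length, and the entries of the other 8 differed by less than 1.1-fold.

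Copies with a T or R suffix were mostly near or at 0. Of the 13, 11 had a mean under 1 RPKM, beside 50.5% of all genes, and 12 a mean under 5 RPKM, beside 70.5% of all genes. Their median was 0.0479 RPKM (replicate 1) and 0 RPKM (replicate 2), against 30.9 and 27.2 RPKM for the general subunits. The median difference of a copy from its own general paralogue was -5.10 on the log2(RPKM + 1) scale. No testis library was analysed here, so the tissue in which the copies are used was not measured, and they are called by their suffix.

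**Figure D2:**
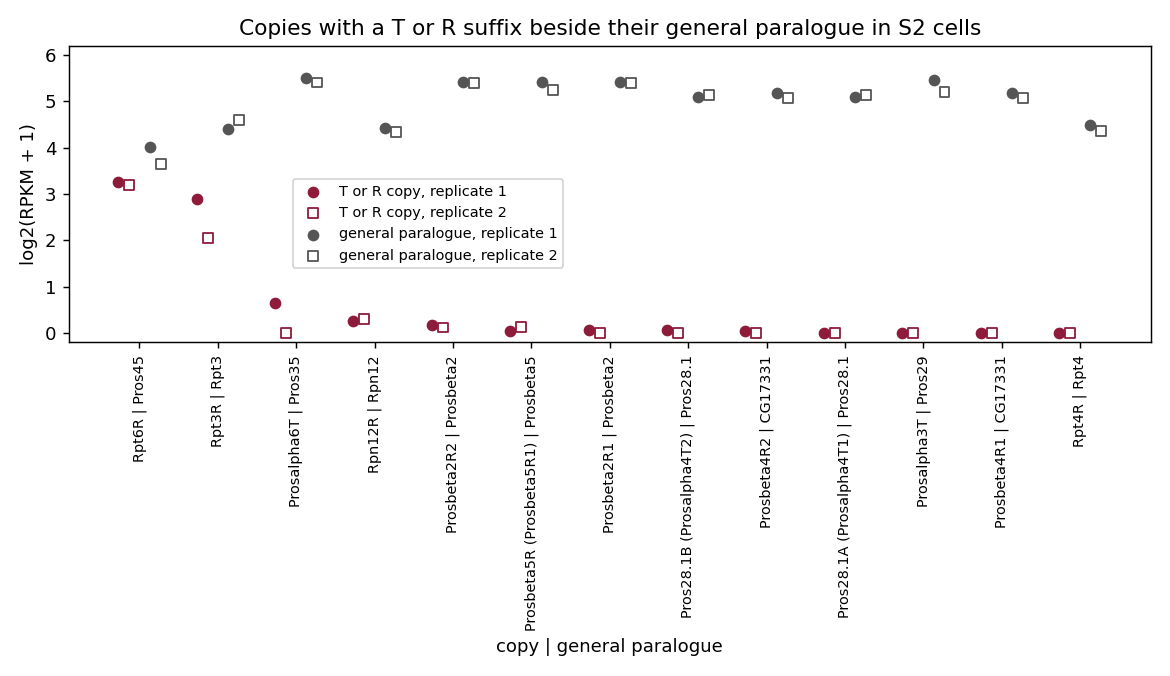
Level in log2(RPKM + 1) (vertical axis) of each of the 13 copies (red, left of each pair) and of its general paralogue (grey, right), with S2 RNA replicate 1 as filled circles and replicate 2 as open squares. Rpt6R and Rpt3R stand within 3 log2 units of their paralogues in both libraries, and the other 11 copies are under 1 RPKM on average.

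All alpha copies among the members have T names. Prosalpha6T, a testis gene that male fertility depends on, had 0.556 RPKM (replicate 1) and 0 RPKM (replicate 2), against 44.3 and 41.5 RPKM for Pros35. Its value in replicate 1 rests on at least 7 reads, with an exact Poisson 95% interval of 0.223 to 1.14 RPKM, and a count of 0 in replicate 2 has an interval up to 1.14 RPKM. On these reads, which are minimum values, the libraries gave p = 0.357 (exact binomial test, not adjusted). With more reads behind the same RPKM the p would be lower and both intervals narrower. Prosalpha4T2 (Pros28.1B) had 0.0479 RPKM, from at least 2 reads, in replicate 1 and 0 RPKM in replicate 2, against 33.1 and 34.4 RPKM for Pros28.1. Prosalpha4T1 (Pros28.1A) and Prosalpha3T were listed at 0 in both libraries, where the paralogue of Prosalpha3T, Pros29, had 43.0 and 35.7 RPKM. The alpha copy outside the rule, CG30382 (Prosalpha1R), went the other way, at 60.8 and 53.8 RPKM, against 60.3 and 53.4 RPKM for Prosalpha1, on reads that the table counts under both symbols.

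Beta copies among the members were as low. Prosbeta2R2 had 0.131 RPKM (replicate 1) and 0.0851 RPKM (replicate 2), and Prosbeta2R1 had 0.0525 RPKM (replicate 1) and 0 RPKM (replicate 2), against 42.0 and 41.2 RPKM for Prosbeta2. In replicate 1 the level of Prosbeta2R2 was 0.311% of that of its paralogue and in replicate 2 it was 0.206%. Prosbeta5R, now Prosbeta5R1, had 0.0244 and 0.0951 RPKM from at least 1 read in each library, against 42.0 and 36.8 RPKM for Prosbeta5. Prosbeta4R2 had 0.0260 RPKM (replicate 1) and 0 RPKM (replicate 2), and Prosbeta4R1, which is separated from it by 1 annotated gene, was listed at 0 in both. Their paralogue CG17331 had 35.3 and 32.9 RPKM. Outside the rule, CG31742 (Prosbeta5R2) had 0.0747 RPKM (replicate 1) and 0 RPKM (replicate 2). For each of these beta copies at most 7 reads were recovered in both libraries together. These are minimum values, and no order among the copies is given.

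Cap copies were more varied. Rpt4R was listed at 0 in both libraries, against 21.5 and 19.5 RPKM for Rpt4. Rpn12R had 0.201 RPKM (replicate 1) and 0.224 RPKM (replicate 2), from at least 7 and 2 reads, against 20.7 and 19.3 RPKM for Rpn12. Rpn12R lies within Sytbeta, which had 0.325 and 0.216 RPKM, a level close to its own. CG6789 (Rpn13R), outside the rule, was listed at 0 in both libraries.

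Rpt6R and Rpt3R, copies of ATPases of the base, were the exceptions among the members. Rpt6R had 8.61 RPKM (replicate 1) and 8.16 RPKM (replicate 2), against 15.2 and 11.5 RPKM for Pros45. It was at 56.6% of the level of its paralogue in replicate 1 and 70.7% in replicate 2, a log2 difference of -0.60 ± 0.21 (SD, n = 2). The ranges of the pair over the libraries did not overlap. Its value rests on at least 461 and 112 reads, and its exact Poisson 95% intervals are 7.84 to 9.43 RPKM and 6.72 to 9.82 RPKM. Rpt6R was the single copy with a mean of at least 5 RPKM, and 80.4% of the protein-coding genes were below it.

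Rpt3R had 6.41 RPKM (replicate 1) and 3.14 RPKM (replicate 2), against 20.1 and 23.3 RPKM for Rpt3. It was at 31.8% of the level of its paralogue in replicate 1 and 13.5% in replicate 2, a log2 difference of -2.03 ± 0.73 (SD, n = 2). Rpt3R was thus higher in replicate 1, while Rpt3 had its higher value in replicate 2 (adjusted p = 0.166 for Rpt3, exact binomial test). The reads behind Rpt3R, at least 341 and 44, give exact Poisson 95% intervals of 5.83 to 7.23 RPKM and 2.38 to 4.39 RPKM, which do not overlap. Copies share sequence with their paralogues, and how reads that fit both were counted is not stated.

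Of 26 testis markers with values, 22 were under 1 RPKM, beside 50.5% of all genes. In both libraries 9 were listed at 0, beside 11.2% of all genes, among them the sperm chromatin genes Mst35Ba and Mst35Bb. The defining marker betaTub85D, the testis tubulin, had 0.0733 RPKM (replicate 1) and 0.0572 RPKM (replicate 2). Markers at 1 RPKM or more were topi, mia, janB and twe. The summed level of the list was 33.0 RPKM (replicate 1) and 18.0 RPKM (replicate 2), of which topi made 22.8 and 7.74 RPKM. In such bulk RNA, fewer cells that express a gene and less RNA per cell cannot be told apart.

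The libraries themselves were compared on recovered reads, by an exact two-sided binomial test for each gene with Benjamini-Hochberg adjustment over all 13403 genes tested. The test compares the libraries and not a condition. Of the 37 members tested 9 had an adjusted p under 0.05, 8 higher in replicate 1 and 1 in replicate 2, where 8.61% of all genes passed, 3.34% higher in replicate 1 and 5.27% in replicate 2. At an unadjusted p under 0.05 there were 12. Among the general subunits 8 of 28 passed. Of the genes outside the members with the same range of reads, 607 to 3044 in both libraries together, 20.1% passed. The range rests on recovered reads, which are minimum values, and its lower end is Prosbeta1, at 501 and 106 reads. By direction, 7 of 28 general subunits were higher in replicate 1, beside 6.84% of the genes in that range, and 1 of 28 in replicate 2, beside 13.2%.

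The members higher in replicate 1 came from every class. In the core they were Prosalpha1 (log2 difference 0.17, adjusted p = 0.0473, exact binomial test), Pros25 (0.25, p = 0.0400), Pros29 (0.26, p = 0.0291) and Prosbeta7 (0.24, p = 0.0427). In the cap they were Pros45 (0.37, adjusted p = 0.0229, exact binomial test), Rpn3 (0.26, p = 0.0171) and Rpn7 (0.30, p = 0.0232). Rpn6 was higher in replicate 2, with a difference of -0.21 (adjusted p = 0.0269, exact binomial test). Among 9 copies tested Rpt3R passed, with a difference of 0.84 (adjusted p = 1.44e-04, exact binomial test). Outside the rule, CG13349 (Rpn13) was higher in replicate 2 (adjusted p = 0.0254, exact binomial test), and CG30382 was higher in replicate 1 (adjusted p = 0.0473, exact binomial test) on the same 2121 and 470 reads as Prosalpha1, so these are not separate calls. Testing the transcript with the fewest reads in place of the most left 5 of the 9 members past the threshold. These were Pros29, Pros45, Rpn3, Rpn7 and Rpt3R, and 816 of 13403 genes passed in all. Recovered reads are minimum values, so this setting can pick an understated entry. The same Prosalpha1 transcript has 2015 and 467 reads on 885 bases in 1 entry and 690 and 152 reads on 295 bases in another. Pros25 has 1 entry and both entries of Prosbeta7 have the same reads. These 2 therefore fell out through the adjustment over all genes and not through their transcripts.

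Core and cap genes were also set side by side for this difference. The median log2 difference, replicate 1 minus replicate 2, was 0.17 over the 20S genes, of which 10 were higher in replicate 1 and 3 in replicate 2. It was 0.03 over the 19S genes, of which 8 were higher in replicate 1 and 7 in replicate 2. Over all general subunits it was 0.08, beside -0.06 over the 1358 other protein-coding genes in the same range of levels. Scaling the libraries to the same median shifted the values of replicate 2 by -0.02 on the log2 scale. The difference between these medians was not tested.

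**Figure D3:**
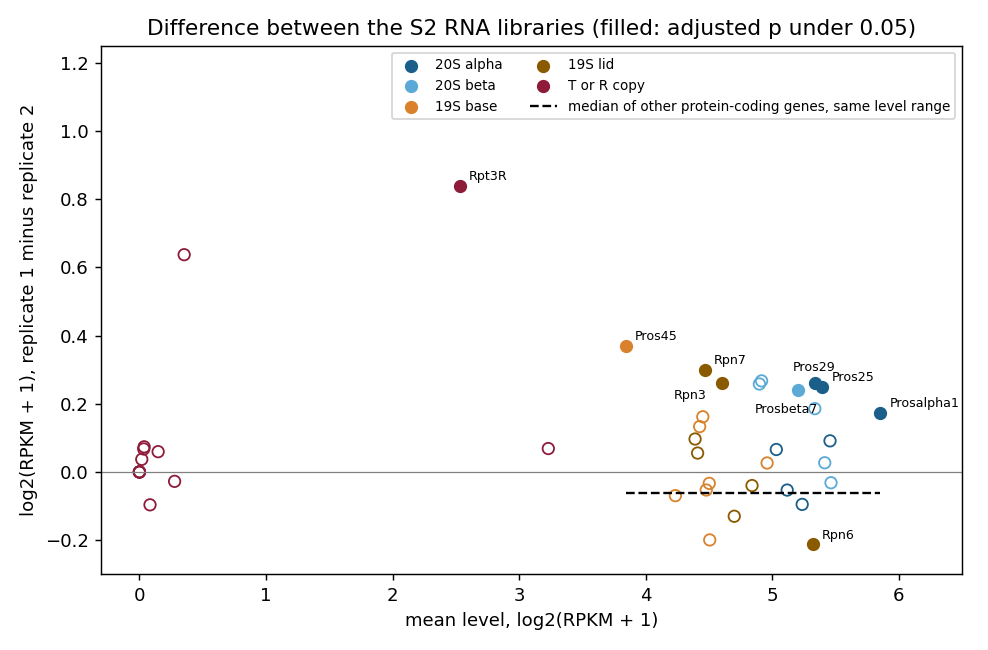
Difference in log2(RPKM + 1), replicate 1 minus replicate 2 (vertical axis), against mean level in log2(RPKM + 1) (horizontal axis) for the 41 members, coloured by class and filled where the adjusted p of the exact binomial test is under 0.05. Rpt3R is the filled point furthest from 0, at 0.84, and the dashed line marks the median of other protein-coding genes in the level range of the general subunits, -0.06.

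Rpt3R did not stand alone among its chromosomal neighbours, which were examined after its value was seen. By gene order in the newer genome release, topi is gene 9 counted from Rpt3R, and the metallothionein gene MtnA, which responds to copper, is gene 14 on the same side. Of the 13 genes between Rpt3R and MtnA, 12 were higher in replicate 1, beside 7522 of 13929 protein-coding genes. Their median log2 difference was 0.95, with a range of -0.45 to 1.45. Of the 12 tested, 10 had an adjusted p under 0.05 in the exact binomial test, all higher in replicate 1. Over all genes 8.61% passed, 3.34% higher in replicate 1. The 10 included the Mediator gene MED6 with 21.97 RPKM (replicate 1) and 10.9 RPKM (replicate 2), Whamy with 37.6 and 16.9 RPKM, and topi with 22.8 and 7.74 RPKM. The exception in direction was the ribosomal protein gene RpS29, at -0.45, for which no reads were recovered. On the other side of Rpt3R, 6 of 13 genes tested passed, all higher in replicate 1, with a median of 0.49. Tti1, next to Rpt3R, had 7.81 and 3.81 RPKM, and Alg12, which overlaps the end of Rpt3R, had 10.52 and 5.46 RPKM on the side of MtnA. Past MtnA the next 13 annotated genes were taken. Over those with values the median was 0.01 and the range -0.20 to 0.13. Of the 11 tested, 0 passed the exact binomial test after adjustment and 1 had an unadjusted p under 0.05. Of these 11, 4 had 1 read in both libraries together and could not pass. Among the 7 with at least 20 reads, 0 passed, with a median of -0.03 and the same range. MtnA itself had 1545 and 1568 RPKM. The difference of Rpt3R between the libraries was therefore within the range of its neighbours, and the part of the neighbourhood in its level was not tested.

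**Figure D4:**
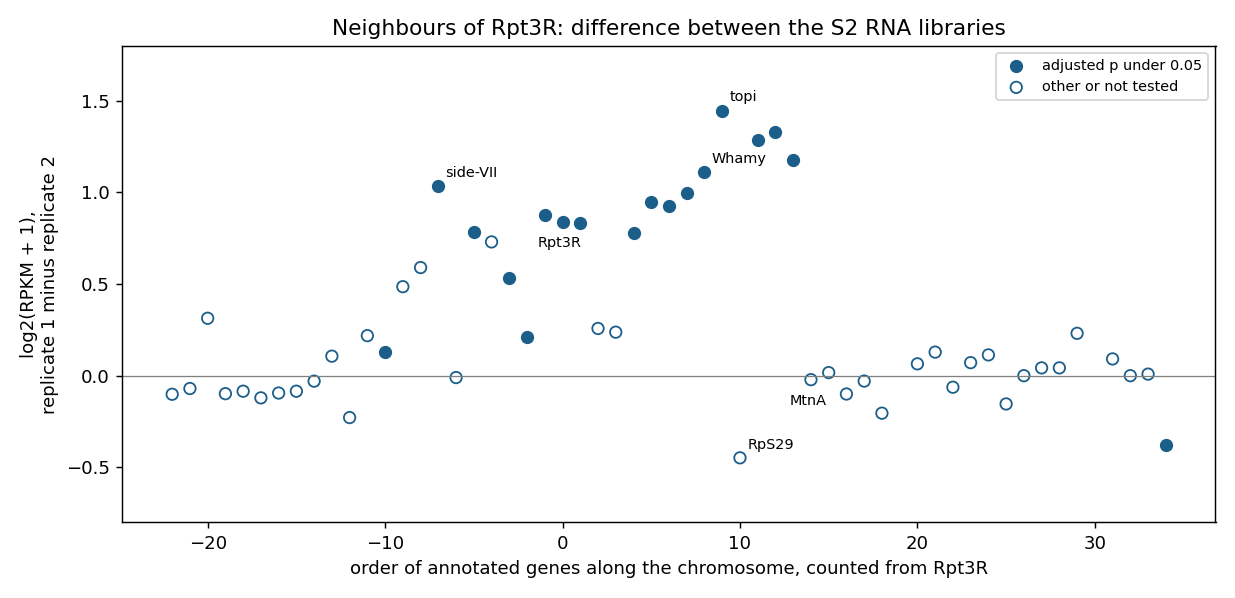
Difference in log2(RPKM + 1), replicate 1 minus replicate 2 (vertical axis), by order of annotated genes counted from Rpt3R at 0 (horizontal axis), filled where the adjusted p of the exact binomial test is under 0.05. From Rpt3R to the gene before MtnA, 12 of 13 neighbours are above 0, beside 7522 of 13929 protein-coding genes. Past MtnA the next 13 annotated genes, where they have values, lie between -0.20 and 0.13. Further out, CG42857 is at 0.23 and Glut4EF, a filled point, at -0.38.

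The wider ubiquitin and proteasome pathway was read from a list of 23 genes, all of which had values. Their median was 18.0 RPKM (replicate 1) and 19.04 RPKM (replicate 2), and 21 had a mean of at least 5 RPKM. The highest were the genes that encode ubiquitin itself, RpS27A with 683 and 926 RPKM and RpL40 with 433 and 629 RPKM, both fused to a ribosomal protein, and the polyubiquitin gene Ubi-p63E with 135 and 138 RPKM. The lowest were Keap1 with 2.11 and 1.71 RPKM, ntc with 3.36 and 4.89 RPKM and cnc with 5.83 and 5.46 RPKM. cnc encodes the Nrf-family transcription factor that acts on proteasome genes, Keap1 its inhibitor, and ntc an F-box partner of the proteasome regulator PI31.

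Several of these genes act on the proteasome directly. The PA28 gamma activator REG had 38.7 RPKM (replicate 1) and 38.0 RPKM (replicate 2), close to the 20S median. Pomp, the chaperone of core assembly, had 18.0 and 15.5 RPKM, and PI31 had 15.3 and 15.7 RPKM. The proteasome-bound deubiquitinases Uch-L5 and Usp14, under the symbols Uch-L3 and CG5384, had 17.5 and 16.6 RPKM and 26.3 and 24.3 RPKM. Of 22 pathway genes tested 8 had an adjusted p under 0.05 in the exact binomial test, where 8.61% of all genes did. That share was 20.1% among genes outside the members with 607 to 3044 reads in both libraries together. Among the 8, Uba1, RpS27A, RpL40 and eff had more reads than that range. No share at the reads of the pathway genes was computed. The ubiquitin-activating enzyme Uba1 was higher in replicate 1, with 53.8 and 46.6 RPKM. RpS27A, RpL40, the conjugating enzymes eff and ben, the shuttle receptors Rad23 and Ubqn, and maf-S, the partner of cnc, were higher in replicate 2.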

How the data were processed

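Total RNA was depleted of ribosomal RNA and sequenced as 50 bp single-end reads. Per the methods, the authors mapped reads with TopHat to release 5 (dm3). The deposited values are RPKM, made by the authors per RefSeq transcript, with replicates, which the methods call biological, kept apart. The counter and its treatment of strand and multiply mapped reads are not given in the sources used here. Whole reads were recovered from the RPKM steps at a relative tolerance of 3e-08 (96.8% of 23661 entries with reads in each library) and are minimum values. Poisson intervals and binomial tests (scipy 1.17.1, Python 3.11.15) cover counting error only. Recovery of library sizes, and of reads up to a common factor, was tested on simulated data. Binomial calls made on recovered reads were not tested in that way. The expected share of replicate 1 was 79.6%. Names, gene order and overlaps come from RefSeq for Release 6 plus ISO1 MT, which matched all 41 symbols. Order and overlaps rest on start and end positions of that release, while reads were mapped to release 5. No coordinates are printed, as the builds differ. Every member is named. Values per library are given for copies and paralogues, the extremes of each class, members past the threshold, catalytic subunits, ubiquitin receptors and Rpn11, and the extremes of the pathway list. Neighbours of Rpt3R were chosen after values were seen. Members and lists were chosen with earlier results of these data known. Alternatives changed the pseudocount to 0.1, the summary over transcripts, the scaling, the filter, the members, or left out a replicate.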

Additional observations from a re-analysis of the deposited data

How the results depend on the processing

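No paired analysis was possible because a single group, S2 RNA, was analysed. Of 37 levels and differences recomputed under alternatives, 29 moved by less than their SD over the libraries and 8 by more. Of 13 counts, 12 stayed within 1.5 times. The difference between replicates stayed within its SD over members in 6 of 6. No mean changed direction under these, and the cause of a change was not tested. With the highest transcript of each gene, the 19S level was 21.7 RPKM in place of 21.3 and the alpha minus beta difference 0.035 in place of 0.09. Added alternatives, chosen after seeing the data, also moved that difference, to 0.16 with subunits under other symbols included and to 0.010 without Prosalpha1. Including other symbols moved base minus lid to -0.29 in place of -0.10. The copies' median difference from their paralogue was -5.10. It was -8.09 with a pseudocount of 0.1, -1.32 among copies with a mean of at least 1 RPKM, which leaves Rpt6R and Rpt3R, and -5.08 with other symbols. Members past the threshold numbered 5 with the fewest-reads transcript in place of 9. That setting can pick entries with understated reads and also changes the adjustment over all genes. They numbered 8 with the share of replicate 1 taken from the median ratio over genes, where Rpn6 was lost. Leaving out 1 replicate, which with 2 libraries must move a mean of the libraries by less than the SD, gave a 20S level of 36.8 to 42.0 RPKM, a 19S level of 21.1 to 21.5 RPKM, and log2 differences of 0.77 to 0.93 for 20S minus 19S, 0.08 to 0.10 for alpha minus beta, -0.16 to -0.03 for base minus lid and -5.11 to -5.09 for the copies. It left 11 copies under 1 RPKM and 28 general subunits at 5 RPKM or more. Depth limits the copies with values under 1 RPKM. Their recovered reads numbered at most 9 in both libraries together, but these are minimum values and the true reads may be more.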

Other observations

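Genes of 3 other complexes, found by their symbols, give a scale for the proteasome. The 25 Mediator genes, which encode the coactivator of RNA polymerase II, had a median of 6.23 RPKM (replicate 1) and 6.65 RPKM (replicate 2), with means from 1.92 to 21.4 RPKM. Of 33 vacuolar ATPase genes, which encode the proton pump of lysosomes, 13 were under 1 RPKM. The median of all 33 was 6.33 RPKM (replicate 1) and 7.58 RPKM (replicate 2), and that of the 20 at 1 RPKM or more was 22.1 and 23.1 RPKM. The 93 cytosolic ribosomal protein genes had a median of 390 RPKM (replicate 1) and 560 RPKM (replicate 2), and 85 of them were higher in replicate 2. General proteasome subunits, at 30.9 and 27.2 RPKM, lay above the Mediator median. Of the 28, 18 were higher in replicate 1, beside 530 of 1358 other protein-coding genes in their range of levels. These complexes were chosen for scale, and the differences between them were not tested.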
